A study of Mus musculus with 18 samples.

Results

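The change of liver transcripts between postnatal day 150 and day 21 was examined in mouse offspring whose dams ate a control diet in pregnancy and a high protein (HP) diet in lactation. Its 6 arrays were chosen by their labels from the 18 of the study. They comprise 3 arrays of day 150 (replicates 4 to 6) and 3 of day 21 (replicates 1 to 3), all after HP lactation. The diets held equal energy, with 40% protein by weight in the HP diet and 20% in the control diet. For comparison, the same change with age was measured in offspring exposed to HP in pregnancy and control diet in lactation, and in offspring of dams on control diet in both periods, with 3 arrays for each day. All mice came from DUK, an outbred line founded on 4 outbred and 4 inbred lines, and had feed and water at will under 12 h of light and 12 h of darkness. Sex, the feed after weaning and the hour of sampling are not given in the sources used here.

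Each Affymetrix mouse genome array carried labelled RNA of a pool of livers, with a single animal drawn from a litter. The sources disagree on the pools. The design text has 4 to 5 animals combined to 3 pools, the sample descriptions have 3 animals a pool, and the extraction protocol has 4 samples a pool at day 21 and 3 to 4 at day 150. Every p-value below therefore measures the spread between pools, and neither that of animals nor of litters, and is too small if pools of a group share animals. The measurement is the array signal on a linear scale, and a change is given as log2 of day 150 over day 21. The days were compared with limma over 11018 genes, with Benjamini-Hochberg adjustment and a threshold of 0.05 on the adjusted p.

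The pools differed in a few ways that the labels do not give. Xist, the RNA that silences an X chromosome in female cells, had signals of 5079.8, 2279.2 and 11644.4 on its 3 probe sets in day 150 replicate 4. In the other 5 pools after HP lactation the same probe sets reached at most 22.1, 34.1 and 93.0. The Y-linked transcripts Eif2s3y and Kdm5d gave 1990 and 393.0 in that replicate, so it carried RNA with Xist beside RNA with Y-linked transcripts. In the other 5 pools after HP lactation Eif2s3y gave 2273 to 2878 and Kdm5d 360.0 to 567, so every one carried Y-linked transcripts. Over all pools of the study the lowest signals of Eif2s3y and Kdm5d were 1431 and 198.5, both in control day 21 replicate 2. Among the comparison pools only control day 21 replicate 2 had high Xist signals, at 2026.3, 1503.2 and 7343.0. Because of the Xist signal, the list counts below after HP lactation are also given without replicate 4. The list counts and medians of control offspring include control day 21 replicate 2 and are not given without it. The 3'/5' signal ratio of control probe sets, often read as a sign of RNA integrity, moved with the day. Integrity itself was not measured in the values used here, and the source of the ratios was not tested. The Gapdh ratio was 1.73, 1.76 and 1.55 at day 150, against 0.821, 0.836 and 0.873 at day 21, and the beta-actin ratio was 5.45 to 5.81 at day 150 and 1.99 to 2.23 at day 21. The Gapdh ratio parted the days in the other diet groups too, with 1.30 to 1.80 in all 9 day 150 pools and 0.821 to 0.993 in all 9 day 21 pools. Day and ratio cannot be told apart in this design, so the medians of lists with 5 or more tested genes are also given from a fit with the Gapdh ratio as a covariate.

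The pools matched their tissue label. Alb, which encodes albumin, the main plasma protein, had signals of 52262, 29958 and 27114 at day 150, against 25610, 24564 and 22746 at day 21, a log2 change of 0.52 (SE 0.19, adjusted p = 0.0535). Of 10 tested genes that define hepatocytes 1 rose, Hnf4a, a regulator of hepatocyte identity. Without replicate 4, 1 rose and 0 fell, and the counts of rising and falling genes were 3 and 0 without day 150 replicate 5 and 5 and 0 without day 150 replicate 6. The median log2 change was 0.33, -0.17 with the Gapdh ratio in the fit and 0.11 without replicate 4. Their summed signal was 465676, 290812 and 281288 at day 150, against 276311, 294389 and 236182 at day 21, so replicate 4 stood highest and the other day 150 pools lay within the day 21 range. In these bulk pools fewer cells of a type and less RNA per cell cannot be told apart.

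Between these days the mouse is weaned from fat-rich milk to solid feed, passes puberty and reaches adult size. The liver is known over this span to end its growth, to switch off fetal genes such as alpha-fetoprotein, and to take on the adult set of drug, steroid and bile acid enzymes. After puberty the pattern of growth hormone release differs between the sexes, and it is known to set apart the hepatic P450 enzymes, sulfotransferases and urinary proteins of males and females. Blood cell formation leaves the liver around birth, while Kupffer cells, the resident macrophages, remain.

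Of 11018 genes tested, 2830 passed (25.7%), 1557 higher (14.1%) and 1273 lower (11.6%) at day 150, and 4144 had an unadjusted p under 0.05. The median change over all genes was 0.025. The 3 signals of one day lay wholly beyond those of the other for 37.2% of all genes, and 790 genes (7.17%) passed with a change of more than 2-fold, 397 of them higher (3.6%) and 393 lower (3.57%). Without replicate 4, 1301 rose and 1053 fell. The division by direction depended on the scaling: 55.0% of the passing genes were higher with the deposited signals, 58.3% after quantile normalization and 66.9% with equal 75th percentiles, which moved the median of all genes to 0.101. With the Gapdh ratio as a covariate 29 genes passed, 25 higher and 4 lower, and with the beta-actin ratio 63 passed, 47 higher and 16 lower. Of the 2830 genes, 94.2% kept their sign with the Gapdh ratio in the fit and 93.0% with the beta-actin ratio. The median size of their change was 0.714 in the reported fit, 0.595 with the Gapdh ratio and 0.554 with the beta-actin ratio. Because each ratio parts the days, a fit with it compares them with less precision. The part of RNA integrity in the changes was not tested.

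The same ages in the other groups gave 2602 passing genes after HP pregnancy (23.6%) and 1959 in control offspring (17.8%), with 12.1% higher and 11.5% lower after HP pregnancy and 9.7% higher and 8.08% lower in control offspring. These comparisons share no array with the one after HP lactation. They do share its variance estimate for each gene, from the single fit of all 18 arrays, and the Gapdh ratio parted the days in every group. The overlaps below are therefore not independent replication. Of the 1557 genes that rose after HP lactation, 865 (55.6%) also rose after HP pregnancy, where they were 64.9% of the rising genes. In control offspring 818 of them (52.5%) rose, 76.5% of the rising genes there. Of the 1273 that fell, 748 (58.8%) fell after HP pregnancy, 58.9% of its falling genes, and 658 (51.7%) fell in control offspring, 73.9% of its falling genes. Over the 11018 genes, which are not independent, the changes correlated with those after HP pregnancy (r = 0.779) and with those in control offspring (r = 0.796). The median size of the change was 0.319 after HP lactation, 0.305 after HP pregnancy and 0.27 in control offspring. Genes whose change differed between the groups are given at the end.

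**Figure D1:**
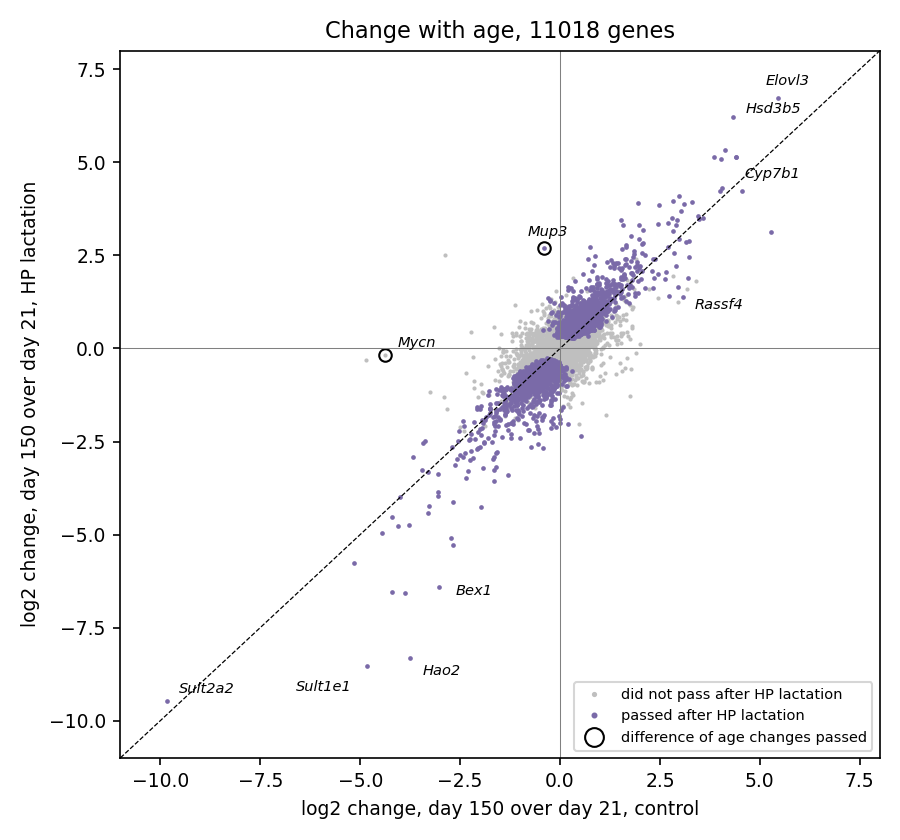
Each point is 1 of 11018 genes, with the log2 change of day 150 over day 21 after HP lactation on the vertical axis and in control offspring on the horizontal axis. Coloured points passed after HP lactation, the dashed line marks equal change, and the ringed genes Mup3 and Mycn lie far from it.

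In the accounts of gene groups that follow, the 3 day 150 signals of a passing gene with printed values lay wholly beyond its 3 day 21 signals, and its call held in all 6 fits that left out 1 of the compared pools, unless the text says otherwise. Counts of a list are given without a single pool where leaving it out moved a count by over 1.5 times. Fewer of all genes passed in those 6 fits too, with 1177 to 1433 higher and 946 to 1108 lower, beside 1557 and 1273. A lower list count in such a fit therefore need not be particular to the list. Signals are listed in the order of replicates 4, 5 and 6 at day 150 and 1, 2 and 3 at day 21. Each list is set beside the median change of all genes, 0.025. Of all genes 14.1% rose and 11.6% fell, and list counts near these shares tell little about a list. The lists were chosen with earlier results of these data known, so their counts are a description and no independent support. Probe sets were filtered by mean log2 signal over all 18 arrays, so a gene dim on 1 day was tested only through brighter pools.

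Genes known as male-biased in adult mouse liver, listed with earlier results of these data known, rose as a group. Of 26 listed genes 18 were tested, and 16 rose and 0 fell. Elovl3, an elongase of very long chain fatty acids, had signals of 7118, 3544 and 11358 at day 150, against 67.0, 90.5 and 39.0 at day 21 (log2 change 6.74, SE 0.41, adjusted p = 2.73e-09). This was the largest rise among all genes whose days did not overlap. Hsd3b5, a steroid reductase of male liver, had 12652, 8580 and 11670 at day 150, against 73.8, 275 and 155 at day 21 (log2 change 6.21, SE 0.42, adjusted p = 9.84e-09). Cyp4a12a, a fatty acid hydroxylase, had 11721, 9832 and 11597 at day 150, against 259, 527 and 150.0 at day 21 (log2 change 5.33, SE 0.31, adjusted p = 1.49e-09). All 3 genes had far lower signals in every day 21 pool than in any day 150 pool. Cyp7b1, an oxysterol hydroxylase of the alternative bile acid pathway, had 31006, 25264 and 23247 at day 150, against 647, 958 and 656 at day 21 (log2 change 5.15, SE 0.16, adjusted p = 1.16e-13).

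Other members of the male-biased list rose by less. Mup3, one of the major urinary proteins that carry pheromones, had 23580, 15440 and 14423 at day 150, against 1309, 3744 and 3913 at day 21 (log2 change 2.70, SE 0.29, adjusted p = 3.21e-06). Its probe set can take signal from near-identical Mup genes, so the gene of origin is uncertain. Mup10, a urinary protein gene outside the list, had 25791, 16945 and 12986 at day 150, against 437, 1114 and 289.8 at day 21 (log2 change 5.10, SE 0.36, adjusted p = 1.36e-08), with the same uncertainty. Slco1a1, an organic anion transporter of the sinusoidal membrane, had 14936, 15664 and 15185 at day 150, against 4946, 7496 and 5972 at day 21 (log2 change 1.33, SE 0.14, adjusted p = 2.98e-06). Serpina12 (vaspin) rose by 3.45 (SE 0.40), Susd4, a complement regulator, by 3.48 (SE 0.28), Keg1 by 2.61 (SE 0.23), the glucuronosyl transferase Ugt2b1 by 1.44 (SE 0.14), the coenzyme A hydrolase Nudt7 by 1.17 (SE 0.15), and Cyp2d9, a testosterone hydroxylase, by 0.74 (SE 0.13) on the log2 scale. The members that did not pass were Cspg5 at 0.64 (SE 0.36, adjusted p = 0.209) and Gstp1 at 0.40 (SE 0.15, adjusted p = 0.0633). The median log2 change was 2.57, 2.53 with the Gapdh ratio in the fit and 2.60 without replicate 4, where 16 rose and 0 fell. With the Gapdh ratio in the fit 6 members still passed, of 29 among all genes tested, and this count is not given for the other lists. For the same list, after HP pregnancy 13 rose and 0 fell (median 1.88), and in control offspring 13 rose and 0 fell (median 1.86).

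Genes known as female-biased, listed in the same way, fell as a group. Of 26 listed 18 were tested, 0 rose and 14 fell. Sult1e1, which sulfates and inactivates oestrogens, had 40.2, 8.50 and 3.50 at day 150, against 2756, 11154 and 1997 at day 21 (log2 change -8.54, SE 0.96, adjusted p = 4.22e-06). Hao2, a peroxisomal hydroxy acid oxidase, had 2.80, 37.2 and 48.9 at day 150, against 4022, 5867 and 7116 at day 21 (log2 change -8.32, SE 1.09, adjusted p = 2.57e-05). Day 150 signals of both genes lay under 57.5, the level of the filter on dim probe sets, where the array measures small values poorly, so the sizes of these falls are imprecise. Cyp2b9, a P450 enzyme, had 20.5, 145 and 677 at day 150, against 5648, 3407 and 6313 at day 21 (log2 change -5.29, SE 0.84, adjusted p = 1.71e-04), with day 150 replicate 6 far above the other day 150 pools. Cyp3a44 had 98.2, 98.6 and 109.6 at day 150, against 2126, 1169 and 1658 at day 21 (log2 change -3.97, SE 0.57, adjusted p = 6.78e-05).

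Cyp3a16 fell by 6.53 (SE 0.86), Cyp2b13 fell by 5.10 (SE 0.75) and Slc22a27, an organic anion transporter, fell by 4.74 (SE 0.97) on the log2 scale, to day 150 signals near or under the filter level. P450 genes of the Cyp2b and Cyp3a families are alike in sequence, and their probe sets may share signal. Abcd2, which brings very long chain acyl groups into peroxisomes, had 246, 224 and 262 at day 150, against 1517, 1789 and 1677 at day 21 (log2 change -2.77, SE 0.42, adjusted p = 1.11e-04). Acot3, a peroxisomal thioesterase, fell by 2.70 (SE 0.48) and Nipal1, a magnesium transporter, fell by 2.66 (SE 0.48) on the log2 scale. Cyp17a1, a steroid hydroxylase, fell by 2.5 (SE 0.74, adjusted p = 0.0188, but 0.0628 without day 150 replicate 5, 0.108 without day 21 replicate 1 and 0.055 without day 21 replicate 2). Sult3a1 had 86.6, 30.7 and 357 at day 150, against 168, 156 and 69.4 at day 21, a change of -0.31 (SE 0.73, adjusted p = 0.789) with overlapping days. Over the list the median log2 change was -2.68, -1.78 with the Gapdh ratio in the fit and -2.52 without replicate 4, where 0 rose and 16 fell. For the same genes, after HP pregnancy 0 rose and 13 fell (median -2.69), and in control offspring 0 rose and 14 fell (median -2.56). Day 150 replicate 4, the pool with Xist signal, had a mean log2 signal of this list of 6.16, against 6.65 and 6.98 in replicates 5 and 6. For the male-biased list it had 12.33, against 12.10 and 12.13, and the reason was not tested.

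**Figure D2:**
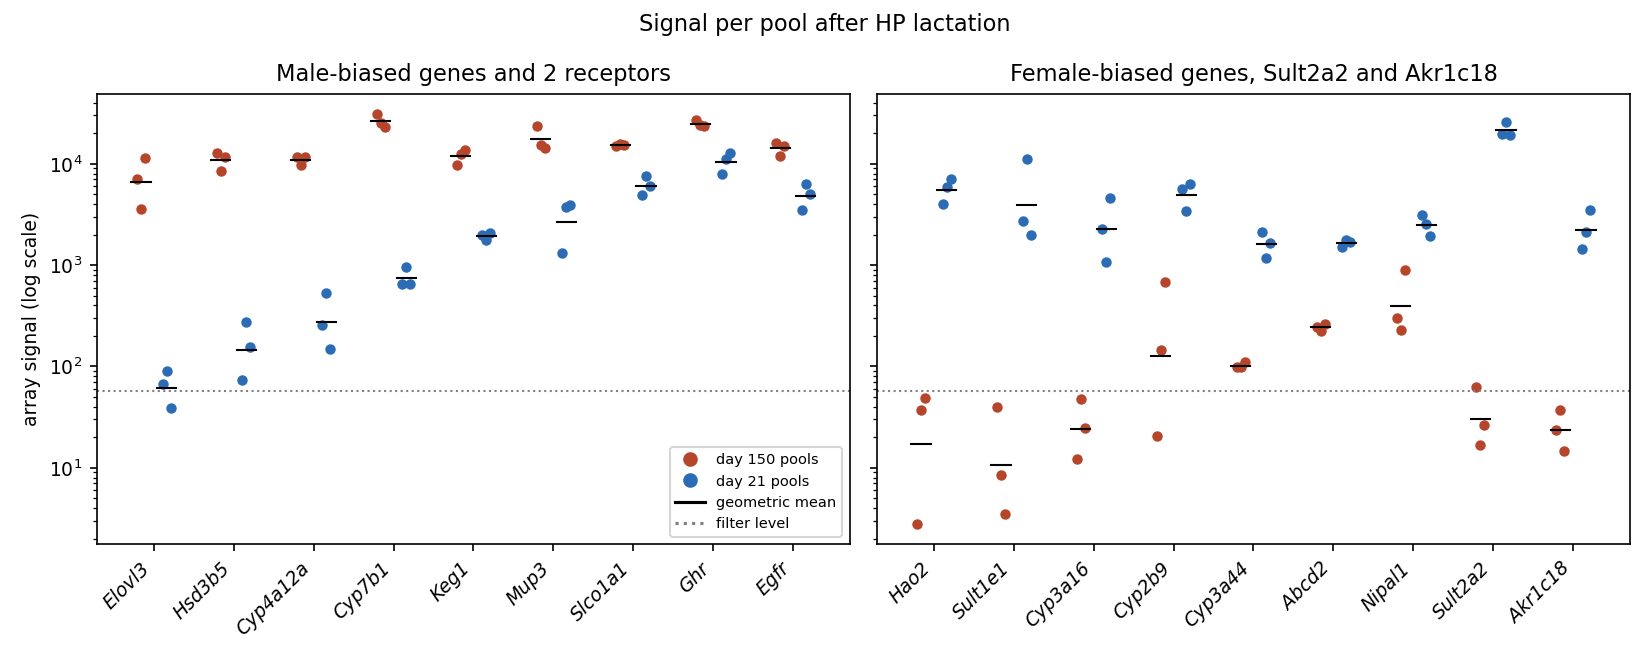
Signal per pool on a log scale for male-biased genes with the receptors Ghr and Egfr (left) and for female-biased genes with Sult2a2 and Akr1c18 (right), day 150 left of day 21 for each gene, with geometric means as lines and the filter level of 57.5 dotted. The day 150 pools lie above the day 21 pools for every gene on the left and below them for every gene on the right.

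The growth hormone and insulin-like growth factor axis moved in both directions, with 6 of 20 tested members higher and 4 lower (listed 23, median 0.001, -0.13 with the Gapdh ratio in the fit and 0.12 without replicate 4, where 5 rose and 3 fell). Ghr, the growth hormone receptor, had 26758, 24201 and 23499 at day 150, against 7873, 11027 and 12778 at day 21 (log2 change 1.26, SE 0.15, adjusted p = 1.19e-05). Egfr, the epidermal growth factor receptor, had 15891, 12017 and 14882 at day 150, against 3527, 6374 and 5004 at day 21 (log2 change 1.55, SE 0.24, adjusted p = 1.60e-04). The hormone Igf1 rose by 0.57 (SE 0.13) and Igfals, the protein that holds it in a circulating complex, by 1.12 (SE 0.17) on the log2 scale. Of its binding proteins, Igfbp1 had 11388, 9095 and 20090 at day 150, against 36913, 39140 and 29764 at day 21 (log2 change -1.46, SE 0.33, adjusted p = 0.00339), and Igfbp3 fell by 1.80 (SE 0.20). Irs2, an adaptor of the insulin receptor, had 275, 209 and 343 at day 150, against 1885, 1337 and 538 at day 21 (log2 change -2.04, SE 0.44, adjusted p = 0.00257). The transducer of the growth hormone receptor, Stat5b, was at -0.092 (SE 0.16, adjusted p = 0.717). The letters TTCNNNGAA, read on both strands as the core of the STAT binding motif, stood in 5 of 21 RefSeq promoters of this list, in 2 of 18 of the male-biased and in 3 of 20 of the female-biased genes, beside 9.55% of the promoters of all 27025 genes.

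Of the genes of the fetal liver that were tested, more fell than rose. Of 10 tested oncofetal genes (13 listed) 0 rose and 6 fell, with a median log2 change of -1.56, -1.44 with the Gapdh ratio in the fit and -1.64 without replicate 4, where 0 rose and 6 fell. Afp, alpha-fetoprotein, the albumin-like serum protein of the fetus, had 90.4, 121 and 95.0 at day 150, against 478, 630.3 and 1438 at day 21 (log2 change -2.90, SE 0.29, adjusted p = 1.48e-06). Lpl, lipoprotein lipase, which the newborn liver makes and the adult liver hardly does, had 1698, 1919 and 3348 at day 150, against 17321, 19117 and 12507 at day 21 (log2 change -2.86, SE 0.28, adjusted p = 7.87e-07). Igf2bp3, an RNA-binding protein of fetal tissue, had 262, 238 and 166 at day 150, against 965, 981 and 1133 at day 21 (log2 change -2.23, SE 0.23, adjusted p = 2.02e-06). Gpc3, a cell surface proteoglycan, fell by 3.38 (SE 0.47) and Spink1, a trypsin inhibitor, fell by 4.42 (SE 0.97) on the log2 scale, both to signals under the filter level. Zbtb20, a known repressor of Afp, had 4748, 4761 and 4576 at day 150, against 1735, 1699 and 2559 at day 21 (log2 change 1.26, SE 0.27, adjusted p = 0.00207). Zhx2, another known repressor of Afp, was at 0.57 (SE 0.28, adjusted p = 0.141).

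Imprinted genes, which are read from 1 parental copy and many of which act on growth, split by direction, with 3 of 14 tested higher and 6 lower (21 listed, median -0.26, -0.47 with the Gapdh ratio in the fit and -0.24 without replicate 4). The maternally expressed RNAs Meg3 and Rian rose by 1.85 (SE 0.28) and 1.61 (SE 0.30). Peg3, a paternally expressed zinc finger gene, had 509, 787 and 742 at day 150, against 5466, 2505 and 2024 at day 21 (log2 change -2.18, SE 0.28, adjusted p = 2.00e-05). Sgce fell by 2.26 (SE 0.22), Plagl1, a zinc finger regulator of imprinted genes, fell by 1.71 (SE 0.32), the growth inhibitor Grb10 fell by 1.39 (SE 0.25), and the cell cycle inhibitor Cdkn1c fell by 1.45 (SE 0.38). Without replicate 4, 3 rose and 6 fell. The genes H19, Igf2 and Dlk1 were below the filter and were not tested.

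Among cell division genes more fell than rose, and the count rested on single pools. Of 52 listed genes 29 were tested, 0 rose and 15 fell, with a median log2 change of -1.07, -1.05 with the Gapdh ratio in the fit and -1.18 without replicate 4, where 0 rose and 11 fell. Members under the filter level at day 150, such as Ube2c, were tested only through brighter pools elsewhere, which favours falls among them. Leaving out day 21 replicate 3 left 5 falling genes, leaving out day 21 replicate 1 left 9, leaving out day 150 replicate 6 left 9, and leaving out day 21 replicate 2 gave 22. The mean log2 signal of the list was 7.57, 7.63 and 7.67 at day 150, against 8.78, 8.17 and 9.57 at day 21, so day 21 replicate 3 stood highest. Mcm6, part of the helicase that opens DNA for replication, had 63.6, 115 and 71.1 at day 150, against 389.5, 409.6 and 1091 at day 21 (log2 change -2.80, SE 0.39, adjusted p = 4.74e-05). Pcna, the clamp of the DNA polymerase, had 2270, 1887 and 1672 at day 150, against 4173, 3113 and 5276 at day 21 (log2 change -1.09, SE 0.18, adjusted p = 2.43e-04). Of the G1 cyclins, Ccnd1 fell by 0.88 (SE 0.21) and Ccne1 fell by 2.28 (SE 0.53), and Cdkn1a, an inhibitor of the cell cycle, fell by 2.66 (SE 0.67, log2 change -1.77 without day 150 replicate 5) on the log2 scale.

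The calls of the mitotic genes named next were lost in several fits that left out 1 pool. Cdk1, the kinase that drives entry into mitosis, had 96.1, 96.3 and 94.3 at day 150, against 232, 134 and 471 at day 21 (log2 change -1.35, SE 0.48, adjusted p = 0.0437, but 0.0857 without day 150 replicate 4, 0.0892 without day 150 replicate 5, 0.0875 without day 150 replicate 6, 0.0851 without day 21 replicate 1 and 0.206 without day 21 replicate 3, log2 change -0.88 without day 21 replicate 3). Ube2c, which marks mitotic cyclins for breakdown, had 35.6, 55.3 and 43.5 at day 150, against 197, 107 and 277 at day 21 (log2 change -2.03, SE 0.68, adjusted p = 0.0344, but 0.0927 without day 150 replicate 4, 0.0539 without day 150 replicate 5, 0.0712 without day 150 replicate 6, 0.0888 without day 21 replicate 1 and 0.113 without day 21 replicate 3). Top2a, a topoisomerase of dividing cells, had 7.20, 30.4 and 69.9 at day 150, against 133, 67.2 and 226 at day 21, where the lowest day 21 pool lay just inside the day 150 range (log2 change -2.35, SE 0.73, adjusted p = 0.0238, but 0.137 without day 150 replicate 4, 0.0644 without day 21 replicate 1 and 0.0967 without day 21 replicate 3, log2 change -1.45 without day 150 replicate 4). Mki67 had 56.4, 36.1 and 62.1 at day 150, against 131, 90.1 and 434 at day 21, a change of -1.78 (SE 0.69, adjusted p = 0.0646). For the whole list, after HP pregnancy 0 rose and 3 fell (median -0.25), and in control offspring 0 rose and 3 fell (median -0.17). No member differed in its change with age from the other groups by the adjusted test.

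The promoters of these 3 mitotic genes are shown because their letters carry the elements known from cell cycle promoters, CCAAT, bound by NF-Y, and TTTGAA, the core of the CHR element bound by the DREAM complex. In the mouse build GRCm38.p6 they lie at chr10:69352863-69353162 on the minus strand for Cdk1, chr11:99024140-99024439 on the minus strand for Top2a and chr2:164769679-164769978 on the plus strand for Ube2c. Each run is 300 bases of RefSeq sequence, from 250 before to 50 after the annotated start, 5′ to 3′ along the gene. Capitals mark CCAAT or TTTGAA on either strand (ATTGG and TTCAAA on the other).
Cdk1: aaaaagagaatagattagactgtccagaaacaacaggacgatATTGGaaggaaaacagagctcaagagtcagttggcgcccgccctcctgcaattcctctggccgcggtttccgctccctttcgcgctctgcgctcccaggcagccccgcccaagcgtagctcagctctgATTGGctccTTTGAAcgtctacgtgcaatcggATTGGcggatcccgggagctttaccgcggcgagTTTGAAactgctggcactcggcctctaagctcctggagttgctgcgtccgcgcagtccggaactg
Top2a: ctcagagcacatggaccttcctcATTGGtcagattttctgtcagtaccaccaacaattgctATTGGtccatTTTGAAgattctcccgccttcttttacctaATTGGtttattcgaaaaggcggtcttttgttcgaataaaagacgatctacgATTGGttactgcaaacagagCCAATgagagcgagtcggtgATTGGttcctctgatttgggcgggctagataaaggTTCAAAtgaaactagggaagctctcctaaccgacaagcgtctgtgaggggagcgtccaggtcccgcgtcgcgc
Ube2c: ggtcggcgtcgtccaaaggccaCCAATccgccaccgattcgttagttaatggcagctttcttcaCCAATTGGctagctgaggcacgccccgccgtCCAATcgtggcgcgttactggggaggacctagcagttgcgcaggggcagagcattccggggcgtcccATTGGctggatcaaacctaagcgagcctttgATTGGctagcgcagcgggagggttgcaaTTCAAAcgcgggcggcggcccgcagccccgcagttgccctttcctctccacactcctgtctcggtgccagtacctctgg
Cdk1 holds 3 CCAAT and 2 TTTGAA matches, Top2a 6 and 2, and Ube2c 6 and 1, counting overlaps. Of 43 listed cell cycle genes with a promoter in the table, 33 (76.7%) held CCAAT, beside 41.1% of all 27025 genes. TTTGAA stood in 20 (46.5%) beside 20.2% of all genes, and both in 19 (44.2%) beside 7.97%. A match of letters describes the promoter and does not show that a factor binds there.

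The extracellular matrix list had the most falling genes of any list by count, with 25 of 43 tested lower and 2 higher (52 listed). A larger share fell in some other lists, such as female-biased genes (14 of 18) and fatty acid oxidation genes (21 of 35). Col3a1, a chain of fibrillar collagen, had 899, 657 and 594 at day 150, against 6234, 3156 and 4561 at day 21 (log2 change -2.67, SE 0.34, adjusted p = 2.00e-05). Sparc, a collagen-binding protein, had 571, 673 and 487 at day 150, against 5726, 4336 and 5128 at day 21 (log2 change -3.14, SE 0.27, adjusted p = 1.49e-07). Col1a2 had 416, 332 and 310.1 at day 150, against 3276, 1103 and 1448 at day 21 (log2 change -2.31, SE 0.39, adjusted p = 3.64e-04). Of the basement membrane collagens, Col4a1 fell by 1.66 (SE 0.20) and Col4a2 fell by 1.69 (SE 0.20), elastin (Eln) fell by 2.14 (SE 0.50, log2 change -1.39 without day 150 replicate 6), the laminin chain Lamc1 fell by 1.58 (SE 0.24) and Postn, a matrix protein of growing tissue, fell by 1.76 (SE 0.24) on the log2 scale. Acta2, the smooth muscle actin of activated stellate cells, fell by 1.64 (SE 0.39) and Pdgfrb, a receptor of stellate cells, fell by 0.87 (SE 0.23). Others did not pass, among them Des, a stellate cell filament, at -0.35 (SE 0.50, adjusted p = 0.642) and Col1a1 at -1.16 (SE 0.66, adjusted p = 0.212). The members above 0 that passed were Col5a3 at 1.06 (SE 0.28, adjusted p = 0.0103, but 0.0514 without day 150 replicate 5) and P4ha1, a collagen hydroxylase, at 0.74 (SE 0.26, adjusted p = 0.0437, but 0.0513 without day 150 replicate 5, 0.258 without day 150 replicate 6, 0.0569 without day 21 replicate 1, 0.133 without day 21 replicate 2 and 0.0762 without day 21 replicate 3, log2 change 0.37 without day 150 replicate 6). The median was -0.88, -0.88 with the Gapdh ratio in the fit and -0.84 without replicate 4, where 2 rose and 24 fell, and the summed signal of the list was 42673 to 45662 at day 150, against 59404 to 76623 at day 21. For matrix genes the counts of rising and falling genes were 0 and 24 without day 150 replicate 5, 1 and 21 without day 150 replicate 6 or day 21 replicate 1, 1 and 26 without day 21 replicate 2 and 1 and 23 without day 21 replicate 3. For this list, after HP pregnancy 1 rose and 21 fell (median -0.77), and in control offspring 3 rose and 23 fell (median -0.76).

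Of 21 cytoskeleton genes tested 1 rose and 4 fell (median -0.23, -0.41 with the Gapdh ratio in the fit and -0.26 without replicate 4). Krt8, the keratin of hepatocytes, rose by 0.69 (SE 0.15). Tuba1a, an alpha tubulin, had 546, 526 and 508 at day 150, against 1079, 1007 and 1511 at day 21 (log2 change -1.16, SE 0.20, adjusted p = 4.61e-04). Tpm1, a tropomyosin, fell by 1.07 (SE 0.15) and Myl9, a myosin light chain of smooth muscle, fell by 3.47 (SE 0.51). Without replicate 4, 1 rose and 4 fell. The cytoskeleton counts of rising and falling genes were 2 and 4 without day 150 replicate 6, 1 and 7 without day 21 replicate 2 and 2 and 3 without day 21 replicate 3.

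**Figure D3:**
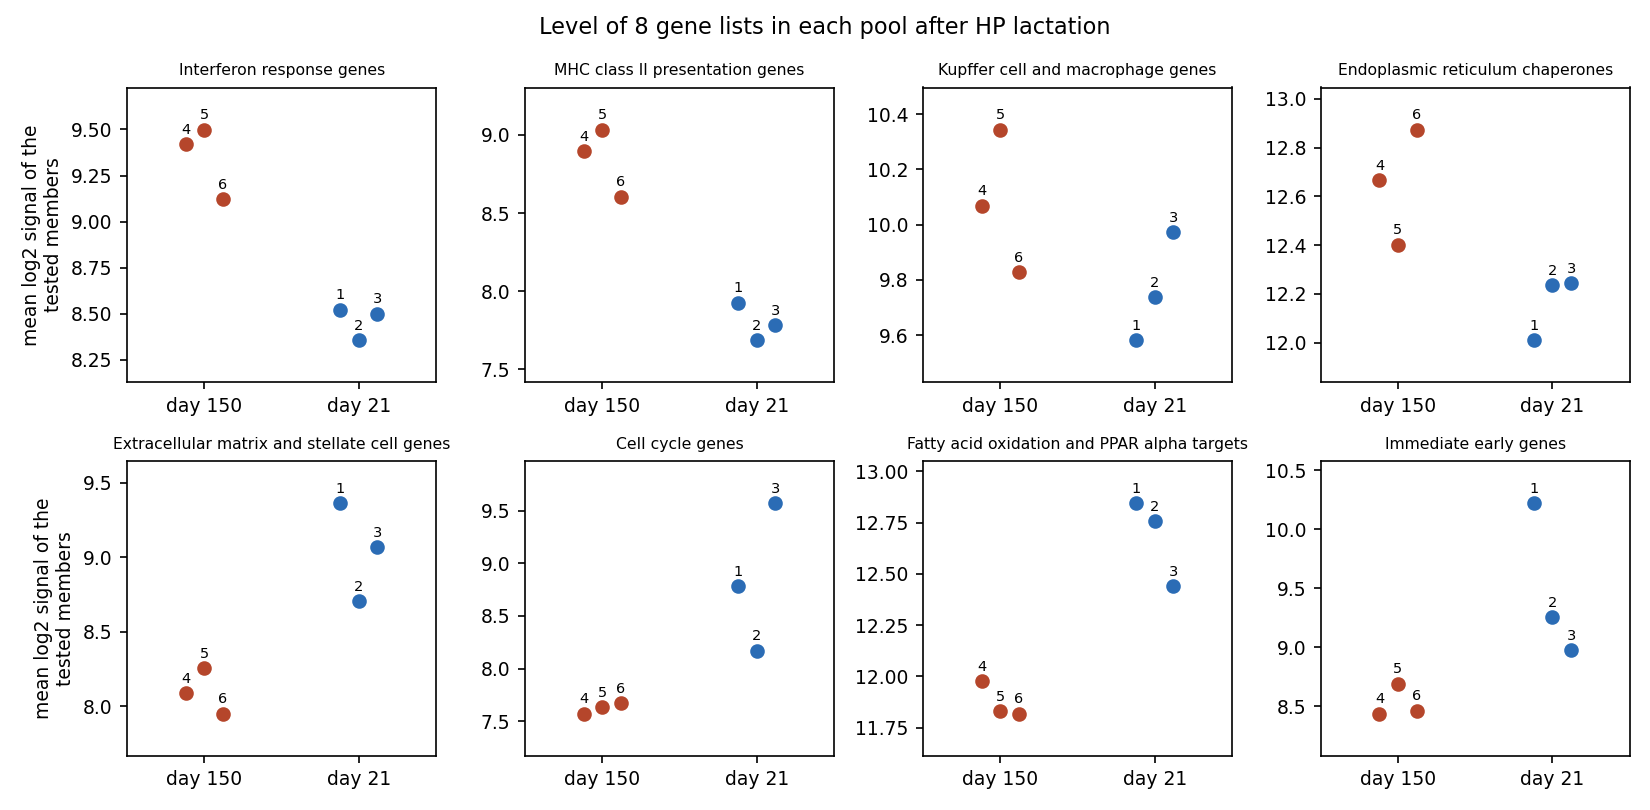
Mean log2 signal of the tested members of 8 lists in each pool after HP lactation, labelled by replicate number, day 150 left of day 21; each panel has its own vertical range. The day 150 pools lie wholly above the day 21 pools for interferon response genes, MHC class II genes and endoplasmic reticulum chaperones and wholly below them in the lower row, while Kupffer cell genes overlap and day 21 replicate 3 is highest for cell cycle genes.

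Bile acid and sterol genes changed in both directions, with 7 of 31 tested higher and 9 lower (median 0.10, -0.10 with the Gapdh ratio in the fit and 0.035 without replicate 4, where 4 rose and 10 fell). Beside Cyp7b1, Cyp46a1, which hydroxylates cholesterol, had 756, 723 and 838 at day 150, against 44.8, 31.2 and 50.8 at day 21 (log2 change 4.22, SE 0.52, adjusted p = 1.26e-05). Cyp39a1, which hydroxylates the product of that enzyme, had 401, 469.8 and 1094 at day 150, against 9088, 10252 and 8843 at day 21 (log2 change -3.99, SE 0.37, adjusted p = 4.64e-07). Of the classical route, Cyp7a1, its rate-limiting enzyme, had 2936, 3070 and 1961 at day 150, against 1568, 7034 and 5932 at day 21, a change of -0.63 (SE 0.44, adjusted p = 0.314) with overlapping days, and Cyp8b1 was at 0.44 (SE 0.20, adjusted p = 0.114). Akr1d1, a steroid reductase of bile acid synthesis, fell by 0.86 (SE 0.16).

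Among the transporters of bile acids and sterols, Abcc4, an export pump of the sinusoidal membrane, had 144, 132 and 105 at day 150, against 551, 686 and 515 at day 21 (log2 change -2.20, SE 0.25, adjusted p = 6.12e-06). Abcc3, another export pump of that membrane, rose by 0.91 (SE 0.19), and the export pump Abcg2 by 0.52 (SE 0.12). Abcg5, which with Abcg8 secretes sterols into bile, had 3280, 2684 and 2446 at day 150, against 8265, 6870 and 3707 at day 21 (log2 change -1.10, SE 0.26, adjusted p = 0.0048). Slco1a4, an uptake carrier of organic anions, fell by 1.23 (SE 0.29). The main uptake carrier Slc10a1 at -0.26 (SE 0.13, adjusted p = 0.159) and the bile acid receptor Nr1h4 at 0.11 (SE 0.11, adjusted p = 0.489) did not pass. For this list, after HP pregnancy 3 rose and 8 fell (median -0.13), and in control offspring 5 rose and 9 fell (median -0.11).

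Of 40 tested genes of oxidative drug metabolism 8 rose and 6 fell (median 0.14, 0.14 with the Gapdh ratio in the fit and 0.045 without replicate 4, where 7 rose and 5 fell). Cyp2c23, which oxidises arachidonic acid, had 10552, 7959 and 10760 at day 150, against 1414, 1347 and 2266 at day 21 (log2 change 2.57, SE 0.36, adjusted p = 4.75e-05). Adh4, an alcohol dehydrogenase, rose by 1.51 (SE 0.19), the aldehyde oxidase Aox3 by 1.5 (SE 0.24), and Aldh1a1, which makes retinoic acid, by 0.74 (SE 0.14). Cyp2c39 had 1609, 1753 and 3605 at day 150, against 8134, 8929 and 8532 at day 21 (log2 change -1.98, SE 0.32, adjusted p = 1.99e-04). Fmo1, a flavin monooxygenase, fell by 0.60 (SE 0.14) and Ephx1, the microsomal epoxide hydrolase, fell by 0.74 (SE 0.16). The abundant adult enzymes Cyp2e1 at 0.31 (SE 0.18, adjusted p = 0.22) and Cyp3a11 at 0.27 (SE 0.15, adjusted p = 0.184) did not pass.

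Carboxylesterases, which split esters of drugs and lipids, gave 3 higher and 2 lower of 8 tested (median -0.018, 0.24 with the Gapdh ratio in the fit and -0.063 without replicate 4). Ces1f had 22776, 20016 and 20873 at day 150, against 5122, 5151 and 3632 at day 21 (log2 change 2.21, SE 0.15, adjusted p = 7.94e-09). Ces1g, a sister gene, had 2181, 1586 and 3489 at day 150, against 5946, 8403 and 7990 at day 21 (log2 change -1.68, SE 0.24, adjusted p = 5.46e-05). These relatives thus moved in opposite directions, with no overlap of days in either. Ces2a rose by 1.04 (SE 0.14) and Ces1e by 0.78 (SE 0.14). Without replicate 4, 3 rose and 1 fell, and the counts of rising and falling genes were 3 and 1 without day 150 replicate 5 or day 150 replicate 6 or day 21 replicate 1 or day 21 replicate 3.

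Sulfotransferases split likewise, with 2 higher and 3 lower of 10 tested (median 0.11, 0.23 with the Gapdh ratio in the fit and 0.16 without replicate 4). Sult2a2, which sulfates bile acids and steroids, had 62.5, 16.6 and 26.2 at day 150, against 19480, 25934 and 19174 at day 21 (log2 change -9.47, SE 0.91, adjusted p = 7.55e-07). It had the largest fall of all genes tested, with 2 of its day 150 signals under the filter level, and its probe set may take signal from close Sult2a relatives. Sult2a8, another bile acid sulfotransferase, had 25148, 20585 and 20337 at day 150, against 8602, 11754 and 10201 at day 21 (log2 change 1.12, SE 0.12, adjusted p = 3.67e-06). Sult5a1 rose by 2.07 (SE 0.21). Without replicate 4, 2 rose and 3 fell, and the counts of rising and falling genes were 3 and 1 without day 21 replicate 2.

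In the list of glutathione and glucuronosyl transferases 6 of 31 tested rose and 5 fell (median -0.023, 0.031 with the Gapdh ratio in the fit and -0.059 without replicate 4). Ugt3a1, a sugar transferase, had 3001, 3414 and 4404 at day 150, against 501, 626 and 389 at day 21 (log2 change 2.84, SE 0.19, adjusted p = 7.19e-09). Ugt2a3 rose by 1.72 (SE 0.16) and Ugdh, which makes the glucuronic acid donor, by 1.38 (SE 0.15). Gstm3, a glutathione transferase, had 491, 362 and 1786 at day 150, against 5449, 7586 and 5767 at day 21 (log2 change -3.18, SE 0.47, adjusted p = 9.71e-05). Gss, the last enzyme of glutathione synthesis, fell by 0.66 (SE 0.14). For these transferases the counts of rising and falling genes were 6 and 3 without day 150 replicate 5 and 9 and 3 without day 21 replicate 2. Without replicate 4, 6 rose and 4 fell.

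Genes of fatty acid oxidation and targets of the fatty acid receptor PPAR alpha gave falls and no rise. Of 40 listed 35 were tested, 0 rose and 21 fell, with a median log2 change of -0.57, -0.59 with the Gapdh ratio in the fit and -0.61 without replicate 4, where 0 rose and 20 fell. Vnn1, a pantetheinase and known PPAR alpha target, had 692, 544 and 334 at day 150, against 6981, 5135 and 3076 at day 21 (log2 change -3.26, SE 0.30, adjusted p = 3.96e-07). Cyp4a31, a fatty acid hydroxylase, had 72.1, 119 and 142 at day 150, against 1254, 709 and 1352 at day 21 (log2 change -3.32, SE 0.26, adjusted p = 4.88e-08). Acot2, a mitochondrial thioesterase, had 786, 748 and 709 at day 150, against 4017, 2916 and 2423 at day 21 (log2 change -2.03, SE 0.24, adjusted p = 7.25e-06). The hormone Fgf21 fell by 2.08 (SE 0.48), Cyp4a14 fell by 1.82 (SE 0.41) and the carnitine acetyltransferase Crat fell by 1.44 (SE 0.26) on the log2 scale.

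Of the oxidation cycle itself, Acadl, a dehydrogenase of long acyl chains, fell by 0.62 (SE 0.11), Cpt2, which frees acyl groups inside mitochondria, fell by 0.59 (SE 0.13), Hadha fell by 0.59 (SE 0.11), Eci1 fell by 0.59 (SE 0.15) and the electron carrier Etfdh fell by 0.55 (SE 0.11). Hadha had 3584, 2881 and 3181 at day 150, against 4926, 4700 and 4852 at day 21, a narrow spread on both days. The gatekeeper Cpt1a at -0.19 (SE 0.19, adjusted p = 0.51), Acadm at -0.21 (SE 0.12, adjusted p = 0.203) and the receptor gene Ppara at -0.085 (SE 0.18, adjusted p = 0.766) did not pass. For this list, after HP pregnancy 0 rose and 24 fell (median -0.66), and in control offspring 0 rose and 19 fell (median -0.60).

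Of 23 tested genes of fatty acid synthesis 3 rose and 4 fell, near the shares of all genes (median -0.21, -0.009 with the Gapdh ratio in the fit and -0.15 without replicate 4, where 2 rose and 3 fell). Acacb, the carboxylase whose product blocks fatty acid entry into mitochondria, had 1723, 1530 and 1579 at day 150, against 714, 478 and 706 at day 21 (log2 change 1.37, SE 0.23, adjusted p = 3.72e-04). Acss2, which makes acetyl-CoA from acetate, rose by 0.78 (SE 0.20). Fasn, the fatty acid synthase, had 2826, 1633 and 3728 at day 150, against 3878, 2739 and 13160 at day 21, a change of -1.01 (SE 0.54, adjusted p = 0.178) with overlapping days. In fatty acid synthesis the counts of rising and falling genes were 3 and 2 without day 150 replicate 5 or day 21 replicate 3. Among desaturases and elongases 2 of 14 rose and 5 fell (median -0.19, -0.14 with the Gapdh ratio in the fit and -0.26 without replicate 4, where 1 rose and 5 fell). Elovl7, an elongase, fell by 2.47 (SE 0.51), Tecr, the last enzyme of elongation, fell by 0.93 (SE 0.18) and the fetal desaturase Scd2 fell by 0.89 (SE 0.23), while Hsd17b12 rose by 0.50 (SE 0.10). For desaturases and elongases the counts of rising and falling genes were 2 and 3 without day 150 replicate 6, 1 and 4 without day 21 replicate 1 or day 21 replicate 3 and 1 and 5 without day 21 replicate 2.

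In the list of lipid droplets and lipid uptake 3 of 20 tested rose and 4 fell (median 0.11, -0.026 with the Gapdh ratio in the fit and 0.041 without replicate 4, where 1 rose and 4 fell). Vldlr, a lipoprotein receptor, had 249.8, 236 and 231 at day 150, against 2120, 2020 and 2831 at day 21 (log2 change -3.27, SE 0.46, adjusted p = 5.96e-05). Fitm1, a protein of droplet formation, had 712, 914 and 842 at day 150, against 265, 322 and 227 at day 21 (log2 change 1.61, SE 0.31, adjusted p = 9.95e-04). Pnpla2, the triglyceride lipase of droplets, had 749, 1066 and 739 at day 150, against 3861, 2250 and 1042 at day 21 with the lowest day 21 pool inside the day 150 range (log2 change -1.31, SE 0.31, adjusted p = 0.00451, log2 change -0.87 without day 21 replicate 1). Mgll, the monoglyceride lipase, fell by 0.62 (SE 0.16). For lipid droplet genes the counts of rising and falling genes were 5 and 3 without day 150 replicate 6.

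Cholesterol synthesis gave 2 higher and 2 lower of 21 tested (26 listed). Its median change was -0.28, 0.36 with the Gapdh ratio in the fit and -0.32 without replicate 4, so its sign turned with the covariate, and 2 rose and 3 fell without replicate 4. For this route the counts of rising and falling genes were 2 and 0 without day 150 replicate 5 or day 21 replicate 1 or day 21 replicate 3 and 2 and 1 without day 21 replicate 2. Tm7sf2, which reduces a sterol intermediate, had 9983, 6885 and 7897 at day 150, against 5176, 5009 and 5374 at day 21 (log2 change 0.65, SE 0.17, adjusted p = 0.00842). The isomerase Ebp of the same route rose by 0.48 (SE 0.12). Squalene epoxidase (Sqle) was at 0.28 (SE 0.34, adjusted p = 0.579) and Hmgcs1 at -0.36 (SE 0.21, adjusted p = 0.215).

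Of 21 genes of apolipoproteins and lipoprotein assembly 2 rose and 2 fell (median 0.16, -0.26 with the Gapdh ratio in the fit and 0.014 without replicate 4, where 1 rose and 2 fell). Apon rose by 0.61 (SE 0.11). Scarb1, the receptor of high density lipoprotein, had 2952, 2330 and 2405 at day 150, against 4038, 4169 and 3521 at day 21 (log2 change -0.61, SE 0.13, adjusted p = 0.00202). Lcat, which esterifies cholesterol in that lipoprotein, fell by 0.52 (SE 0.12). For apolipoproteins the counts of rising and falling genes were 5 and 2 without day 150 replicate 6 and 1 and 2 without day 21 replicate 2 or day 21 replicate 3.

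Targets of ATF4, the regulator that answers amino acid shortage, and genes of serine synthesis gave more falls than rises. Of 20 tested (23 listed) 1 rose and 9 fell, with a median log2 change of -0.65, -0.76 with the Gapdh ratio in the fit and -0.81 without replicate 4, where 1 rose and 8 fell. Psat1, an aminotransferase of serine synthesis, had 64.8, 25.7 and 48.8 at day 150, against 885, 775 and 1442 at day 21 (log2 change -4.52, SE 0.34, adjusted p = 3.17e-08). Asns, asparagine synthetase, had 275, 637 and 297 at day 150, against 1082, 936 and 1499 at day 21 (log2 change -1.62, SE 0.43, adjusted p = 0.01). Atf5, a relative of ATF4, had 5849, 4636 and 7067 at day 150, against 13307, 15375 and 15184 at day 21 (log2 change -1.34, SE 0.18, adjusted p = 4.13e-05). Psph, the last enzyme of serine synthesis, fell by 0.94 (SE 0.24, log2 change -0.55 without day 21 replicate 3) and the pseudokinase Trib3 fell by 0.71 (SE 0.18). Atf4 itself was at -0.37 (SE 0.17, adjusted p = 0.131) and Ddit3, a stress factor that it induces, at -0.32 (SE 0.21, adjusted p = 0.277). For ATF4 targets the counts of rising and falling genes were 0 and 7 without day 150 replicate 5 or day 21 replicate 1 or day 21 replicate 2. For this list, after HP pregnancy 1 rose and 9 fell (median -0.86), and in control offspring 0 rose and 6 fell (median -0.55).

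Enzymes that break down amino acids gave 10 higher and 5 lower of 47 tested (median 0.19, 0.16 with the Gapdh ratio in the fit and 0.078 without replicate 4, where 8 rose and 5 fell). Kmo, the kynurenine hydroxylase of tryptophan breakdown, had 9285, 9042 and 8975 at day 150, against 4130, 5220 and 4783 at day 21 (log2 change 0.96, SE 0.13, adjusted p = 3.44e-05). Kynu, the next enzyme of tryptophan breakdown, had 5840, 5070 and 6426 at day 150, against 2357, 3001 and 2967 at day 21 (log2 change 1.06, SE 0.15, adjusted p = 7.22e-05). Ddc, which decarboxylates aromatic amino acids, rose by 1.18 (SE 0.23), Acadsb, of isoleucine breakdown, by 0.90 (SE 0.13), and Dpyd, which breaks down pyrimidines, by 0.65 (SE 0.11). Gcdh, of lysine breakdown, had 5618, 4708 and 4937 at day 150, against 9187, 9610 and 7952 at day 21 (log2 change -0.81, SE 0.12, adjusted p = 6.84e-05). Of the subunits of propionyl-CoA carboxylase, Pcca fell by 0.51 (SE 0.12) and Pccb fell by 0.73 (SE 0.16).

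Of 14 genes of the urea cycle and ammonia disposal 1 rose and 2 fell (median -0.091, -0.19 with the Gapdh ratio in the fit and -0.14 without replicate 4). The entry enzyme Cps1 had 42184, 29616 and 29398 at day 150, against 28267, 32802 and 23715 at day 21, a change of 0.25 (SE 0.15, adjusted p = 0.246) with overlapping days. Slc25a22, a mitochondrial glutamate carrier, fell by 1.02 (SE 0.18) and Rhbg, an ammonium channel, fell by 1.05 (SE 0.21). Without replicate 4, 1 rose and 4 fell. The methionine cycle and one-carbon list gave 0 higher and 4 lower of 20 tested (median -0.12, -0.11 with the Gapdh ratio in the fit and -0.15 without replicate 4, where 0 rose and 3 fell). Gamt, of creatine synthesis, fell by 0.78 (SE 0.19) and Mthfd1l, of mitochondrial folate metabolism, fell by 1.0 (SE 0.29). Of the methionine cycle the counts of rising and falling genes were 1 and 2 without day 150 replicate 5, 1 and 3 without day 21 replicate 2 and 0 and 2 without day 21 replicate 3. Among amino acid transporters 1 of 17 rose and 3 fell (median -0.27, -0.19 with the Gapdh ratio in the fit and -0.33 without replicate 4, where 1 rose and 3 fell), and the counts of rising and falling genes were 2 and 3 without day 21 replicate 2. Slc3a2, the shared chain of several exchangers, had 1179, 1164 and 947 at day 150, against 5001, 3794 and 4173 at day 21 (log2 change -1.98, SE 0.22, adjusted p = 3.41e-06). Slc3a1, the chain of the cystine transporter, had 3323, 2131 and 2645 at day 150, against 626, 962 and 1017 at day 21 (log2 change 1.65, SE 0.25, adjusted p = 1.29e-04).

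Genes of glucose output and glycolysis gave 4 higher and 8 lower of 31 tested (median -0.14, -0.23 with the Gapdh ratio in the fit and -0.15 without replicate 4, where 3 rose and 7 fell). Gys2, the glycogen synthase of liver, had 2322, 2931 and 2260 at day 150, against 5960, 5123 and 5500 at day 21 (log2 change -1.15, SE 0.16, adjusted p = 6.46e-05). Slc2a1, a glucose transporter of fetal tissue, fell by 0.80 (SE 0.20, log2 change -0.49 without day 21 replicate 1), while Hk3, a hexokinase, rose by 0.93 (SE 0.24). Pck1 at -0.14 (SE 0.20, adjusted p = 0.651) and G6pc at -0.61 (SE 0.36, adjusted p = 0.225), which control glucose output, did not pass. For glucose genes the counts of rising and falling genes were 3 and 5 without day 150 replicate 5 or day 150 replicate 6.

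Retinoid genes gave more rises than falls, with 6 of 18 tested higher and 1 lower (median 0.34, 0.21 with the Gapdh ratio in the fit and 0.17 without replicate 4, where 5 rose and 1 fell). Rdh16, a retinol dehydrogenase, had 2558, 2364 and 2670 at day 150, against 1262, 1146 and 1097 at day 21 (log2 change 1.12, SE 0.15, adjusted p = 4.59e-05). Retsat, which saturates retinol, rose by 0.95 (SE 0.19) and the receptor Rxrb by 1.11 (SE 0.28). Bco1, which cleaves beta-carotene to retinal, had 272, 288 and 255 at day 150, against 672, 546 and 832 at day 21 (log2 change -1.31, SE 0.19, adjusted p = 7.17e-05). In the iron, haem and metallothionein list 5 of 29 rose and 2 fell (median 0.27, 0.078 with the Gapdh ratio in the fit and 0.067 without replicate 4, where 2 rose and 2 fell). Fech, which inserts iron into haem, rose by 0.69 (SE 0.12) and Tmprss6, a protease that restrains hepcidin, by 0.51 (SE 0.12). Hamp, hepcidin, the hormone that limits iron uptake, had 36970, 28852 and 26706 at day 150, against 26186, 20373 and 15243 at day 21 (log2 change 0.60, SE 0.17, adjusted p = 0.0135, but 0.0678 without day 150 replicate 4 and 0.0791 without day 21 replicate 3). Of earlier steps of haem synthesis, Urod fell by 0.65 (SE 0.13) and Cpox fell by 0.87 (SE 0.19). Of iron genes the counts of rising and falling genes were 3 and 3 without day 21 replicate 1.

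Among transcription factors of hepatocytes 8 of 29 tested rose and 3 fell (median 0.11, 0.21 with the Gapdh ratio in the fit and 0.087 without replicate 4, where 8 rose and 3 fell). Cebpa, a factor of differentiated hepatocytes, had 7853, 7337 and 5612 at day 150, against 3813, 3407 and 3816 at day 21 (log2 change 0.90, SE 0.14, adjusted p = 1.20e-04). Hnf4a had 15322, 12266 and 11555 at day 150, against 10100, 9298 and 8357 at day 21 (log2 change 0.49, SE 0.11, adjusted p = 0.00355). Onecut2 rose by 1.21 (SE 0.22), the oestrogen receptor Esr1 by 0.92 (SE 0.18) and Nfia by 0.60 (SE 0.15). Nr1h4 and Ppara, given above, did not pass. For transcription factors the counts of rising and falling genes were 5 and 1 without day 150 replicate 5, 8 and 0 without day 150 replicate 6 and 6 and 1 without day 21 replicate 1.

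Complement and clotting factors are serum proteins made by the liver, and the late components of complement form the membrane attack complex. Of 45 tested complement and coagulation genes 13 rose and 4 fell, with a median log2 change of 0.28, 0.014 with the Gapdh ratio in the fit and 0.13 without replicate 4, where 10 rose and 4 fell. C6 had 2444, 2627 and 2102 at day 150, against 139.7, 110.2 and 133 at day 21 (log2 change 4.23, SE 0.23, adjusted p = 8.02e-10). C9 had 45474, 29744 and 29641 at day 150, against 4622, 11274 and 6861 at day 21 (log2 change 2.27, SE 0.24, adjusted p = 2.24e-06). The gene of the fifth component, Hc, rose by 1.24 (SE 0.17), and the chains of the eighth, C8a, C8b and C8g, by 1.45 (SE 0.17), 1.23 (SE 0.16) and 1.05 (SE 0.15). Of the early components, C2 rose by 1.33 (SE 0.15) and C1s1 by 0.92 (SE 0.14), and C1qa of the Kupffer cell list did not pass. Of the clotting factors, F10 fell by 0.48 (SE 0.12) and F11 fell by 0.88 (SE 0.21), and Fgb, a fibrinogen chain, was at 0.38 (SE 0.15, adjusted p = 0.0652). For this list, after HP pregnancy 9 rose and 8 fell (median 0.059), and in control offspring 10 rose and 4 fell (median 0.068).

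Of 26 acute phase genes tested 7 rose and 2 fell (median 0.32, -0.11 with the Gapdh ratio in the fit and 0.071 without replicate 4, where 5 rose and 2 fell), and the counts of rising and falling genes were 6 and 1 without day 150 replicate 5 and 5 and 1 without day 21 replicate 1. The serum amyloids varied between pools of a day. Saa1 had 40611, 27221 and 11709 at day 150, against 2347, 1853 and 7964 at day 21 (log2 change 2.85, SE 0.71, adjusted p = 0.00641), with day 150 replicate 6 lowest and day 21 replicate 3 highest of their days. Saa2 had 33258, 24447 and 4032 at day 150, against 374, 326 and 3517 at day 21 (log2 change 4.30, SE 1.21, adjusted p = 0.0138, but 0.0601 without day 150 replicate 4, 0.0517 without day 150 replicate 5, 0.061 without day 21 replicate 1 and 0.0589 without day 21 replicate 2). Saa4, a form made constantly, had 25363, 19068 and 16558 at day 150, against 2524, 4803 and 3994 at day 21 (log2 change 2.46, SE 0.22, adjusted p = 2.52e-07). Orm1, an acid glycoprotein, rose by 1.10 (SE 0.17) and Crp by 0.65 (SE 0.13), while the interleukin antagonist Il1rn fell by 1.81 (SE 0.42). Among serpina inhibitors and hormone carriers 3 of 11 rose and 1 fell (median 0.40, -0.15 with the Gapdh ratio in the fit and 0.14 without replicate 4, where 3 rose and 1 fell), and the counts of rising and falling genes were 7 and 0 without day 150 replicate 6 and 3 and 0 without day 21 replicate 3. Serpina4-ps1, a pseudogene of that family, had 4619, 10740 and 6180 at day 150, against 212, 696 and 616 at day 21 (log2 change 3.91, SE 0.45, adjusted p = 5.56e-06).

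Among chaperones more genes rose than fell. Of 23 tested heat shock genes 11 rose and 3 fell (median 0.44, 0.42 with the Gapdh ratio in the fit and 0.40 without replicate 4, where 10 rose and 1 fell). Hspb1, a small heat shock protein, had 2746, 2074 and 1427 at day 150, against 199.6, 93.5 and 124 at day 21 (log2 change 3.92, SE 0.24, adjusted p = 2.73e-09). Hspa1b, an inducible Hsp70 whose sequence is nearly that of Hspa1a, had 11959, 13072 and 20749 at day 150, against 3904, 3388 and 3614 at day 21 (log2 change 2.03, SE 0.22, adjusted p = 3.21e-06). Hsph1 rose by 1.59 (SE 0.27) and Hspa8, the constant form of Hsp70, by 0.69 (SE 0.13), while Cct2, a chaperonin subunit, fell by 0.40 (SE 0.10). Among heat shock genes the counts of rising and falling genes were 7 and 3 without day 150 replicate 6, 7 and 2 without day 21 replicate 1 and 9 and 1 without day 21 replicate 2. Of 26 chaperones of the endoplasmic reticulum 10 rose and 0 fell (median 0.38, 0.30 with the Gapdh ratio in the fit and 0.34 without replicate 4, where 5 rose and 0 fell). Hyou1 had 3755, 3112 and 3500 at day 150, against 1157, 1216 and 1506 at day 21 (log2 change 1.42, SE 0.20, adjusted p = 6.21e-05). Creld2 rose by 1.71 (SE 0.32), Derl1, of protein export from the reticulum, by 0.97 (SE 0.18), and Xbp1, a regulator of secretion, by 0.61 (SE 0.10). Of reticulum chaperones the counts of rising and falling genes were 6 and 0 without day 21 replicate 1.

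Proteasome subunits gave more falling than rising genes, with 0 of 31 tested higher and 13 lower (median -0.25, -0.15 with the Gapdh ratio in the fit and -0.26 without replicate 4, where 0 rose and 11 fell), and the counts of rising and falling genes were 1 and 10 without day 21 replicate 2. Psma6, of the core ring, had 7450, 7678 and 8910 at day 150, against 14375, 17255 and 13391 at day 21 (log2 change -0.90, SE 0.12, adjusted p = 1.96e-05). Psmd7, of the regulatory cap, fell by 0.85 (SE 0.16) and Psmb2 fell by 0.76 (SE 0.14). Subunits of oxidative phosphorylation gave 13 higher and 5 lower of 69 tested (median 0.082, -0.15 with the Gapdh ratio in the fit and 0.004 without replicate 4, where 6 rose and 7 fell), and the counts of rising and falling genes were 6 and 5 without day 21 replicate 1 and 7 and 6 without day 21 replicate 3. Sdha, of succinate dehydrogenase, had 15439, 14697 and 13819 at day 150, against 6406, 8316 and 8003 at day 21 (log2 change 0.96, SE 0.12, adjusted p = 1.70e-05). Ndufa10, of complex I, had 7530, 5356 and 5561 at day 150, against 10467, 11551 and 11239 at day 21 (log2 change -0.87, SE 0.14, adjusted p = 1.75e-04), so the direction differed between subunits. Of 42 cytosolic ribosomal protein genes 1 rose and 0 fell (median 0.064, -0.42 with the Gapdh ratio in the fit and -0.037 without replicate 4, where 0 rose and 1 fell), and the counts of rising and falling genes were 1 and 1 without day 150 replicate 5 or day 150 replicate 6 and 0 and 1 without day 21 replicate 3.

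**Figure D4:**
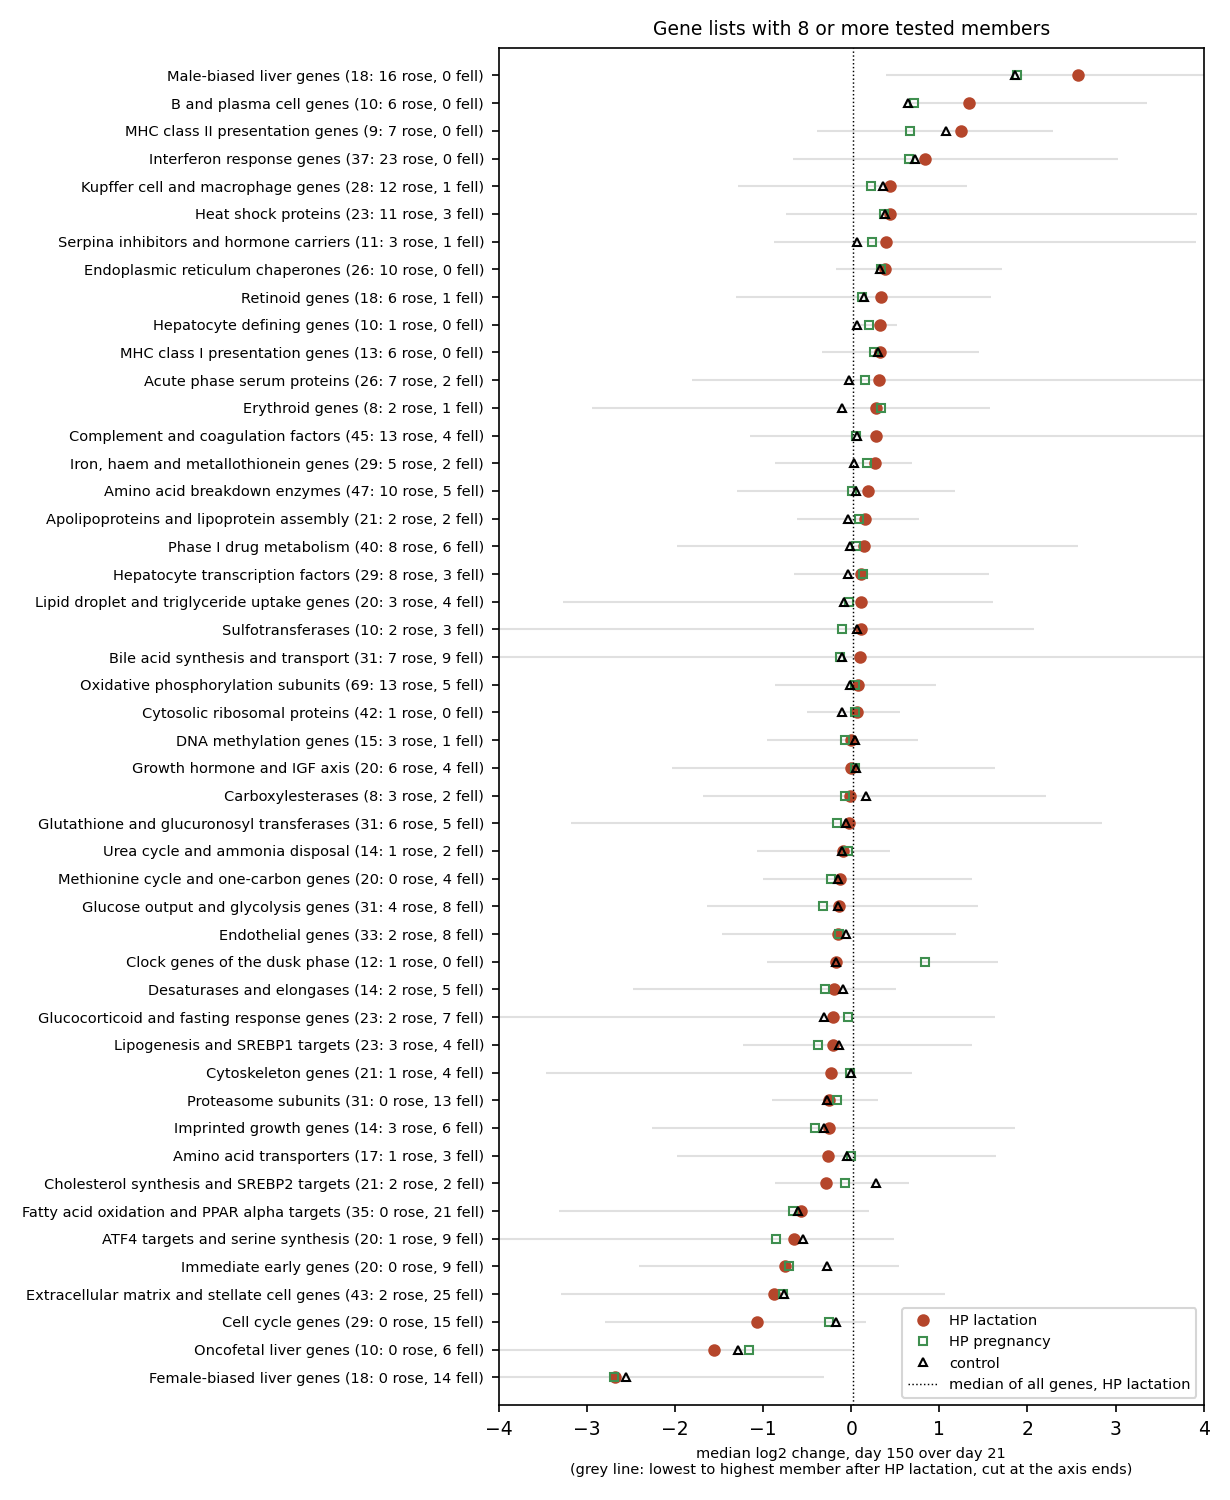
Median log2 change of day 150 over day 21 for each list with 8 or more tested members, after HP lactation (filled circles), after HP pregnancy (open squares) and in control offspring (triangles), with the lowest and highest member after HP lactation as a grey line and the all-gene median of 0.025 dotted. Male-biased genes lie highest and female-biased genes lowest, and cell cycle genes lie lower after HP lactation (median -1.07) than after HP pregnancy (-0.25) or in control offspring (-0.17), a difference of lists that was not tested. Without day 21 replicate 3 the cell cycle median after HP lactation was -0.71.

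Lists of immune genes differed in how many members passed. Of 45 listed interferon response genes 37 were tested, 23 rose and 0 fell, with a median log2 change of 0.83, 0.95 with the Gapdh ratio in the fit and 0.67 without replicate 4, where 20 rose and 0 fell. Ifi27 had 6122, 5380 and 7487 at day 150, against 814, 1054 and 981 at day 21 (log2 change 2.73, SE 0.19, adjusted p = 1.29e-08). Ifi47, an interferon-induced GTPase, had 4733, 3718 and 2255 at day 150, against 588, 766 and 919.7 at day 21 (log2 change 2.19, SE 0.24, adjusted p = 3.24e-06). Irf7, a regulator of interferon genes, had 549, 605 and 456 at day 150, against 195, 215 and 156 at day 21 (log2 change 1.51, SE 0.18, adjusted p = 8.82e-06). The antiviral sensor Zbp1 rose by 3.02 (SE 0.57), Oasl1 by 1.64 (SE 0.32), and the GTPases Igtp and Gbp6 by 1.59 (SE 0.28) and 1.86 (SE 0.48). Gbp2b, a guanylate-binding protein outside the list, had 200.4, 315 and 197 at day 150, against 8.10, 8.2 and 37.5 at day 21 (log2 change 4.10, SE 0.86, adjusted p = 0.00203). Usp18, a brake on the interferon receptor, was at -0.66 (SE 0.31, adjusted p = 0.122). For interferon genes the counts of rising and falling genes were 18 and 1 without day 150 replicate 5 and 20 and 1 without day 150 replicate 6. For this list, after HP pregnancy 16 rose and 1 fell (median 0.66), and in control offspring 17 rose and 0 fell (median 0.72).

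Genes that present antigens to helper T cells on MHC class II rose in 7 of 9 tested cases and fell in 0 (median 1.24, 1.81 with the Gapdh ratio in the fit and 1.22 without replicate 4, where 5 rose and 0 fell). H2-Ea had 534, 706 and 430.4 at day 150, against 92.6, 126 and 119.8 at day 21 (log2 change 2.29, SE 0.29, adjusted p = 2.00e-05). H2-Aa had 904, 833 and 676 at day 150, against 332, 192 and 231 at day 21 (log2 change 1.70, SE 0.23, adjusted p = 2.92e-05). Cd74, the chain that guides these molecules, rose by 1.24 (SE 0.25). For class II genes the counts of rising and falling genes were 4 and 0 without day 150 replicate 5 or day 21 replicate 2. MHC class I genes gave 6 higher and 0 lower of 13 tested (median 0.32, 0.33 with the Gapdh ratio in the fit and 0.20 without replicate 4, where 5 rose and 0 fell), with the immunoproteasome subunit Psmb9 at 1.45 (SE 0.21) and H2-D1 at 0.76 (SE 0.13). Several MHC genes are alike in sequence and their probe sets may share signal.

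Kupffer cell and macrophage genes gave 12 higher and 1 lower of 28 tested (median 0.44, -0.017 with the Gapdh ratio in the fit and 0.45 without replicate 4, where 8 rose and 1 fell). The median thus lay near 0 with the Gapdh ratio in the fit, and the counts of rising and falling genes were 6 and 2 without day 150 replicate 5 or day 21 replicate 1. Clec4f, a lectin of Kupffer cells, had 2062, 3121 and 1969 at day 150, against 1118, 1337 and 1507 at day 21 (log2 change 0.83, SE 0.17, adjusted p = 0.00151). Cd5l, a protein secreted by macrophages, had 6127, 6964 and 4043 at day 150, against 2182, 2435 and 2636 at day 21 (log2 change 1.21, SE 0.18, adjusted p = 1.26e-04). Marco, a scavenger receptor, had 314, 325 and 387 at day 150, against 742, 867 and 890.5 at day 21 (log2 change -1.29, SE 0.33, adjusted p = 0.00807). The Kupffer genes Timd4 at 0.55 (SE 0.23, adjusted p = 0.0823) and Vsig4 at 0.33 (SE 0.22, adjusted p = 0.279) and the complement chain C1qa at 0.13 (SE 0.16, adjusted p = 0.589) did not pass. The summed signal of the list was 49729 to 67773 at day 150, against 36205 to 46526 at day 21.

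Of 24 listed genes of B and plasma cells 10 were tested, 6 rose and 0 fell (median 1.33, 1.42 with the Gapdh ratio in the fit and 1.28 without replicate 4, where 6 rose and 0 fell). Members under the filter level in day 21 pools, such as Jchain, passed the filter through brighter pools elsewhere, which favours rises among them. Jchain, which joins secreted antibodies, had 396, 448 and 614 at day 150, against 60.1, 29.7 and 57.1 at day 21 (log2 change 3.35, SE 0.31, adjusted p = 5.00e-07). Igha, the constant chain of immunoglobulin A, had 427, 237 and 586 at day 150, against 70.3, 44.5 and 73.2 at day 21 (log2 change 2.67, SE 0.39, adjusted p = 8.60e-05). Ighm, that of immunoglobulin M, had 531, 287 and 417 at day 150, against 124, 19 and 152 at day 21 (log2 change 2.49, SE 0.55, adjusted p = 0.00286, log2 change 1.54 without day 21 replicate 2). Of the B cell genes, Cd79a lay below the filter, and Ms4a1 was at 1.42 (SE 0.61, adjusted p = 0.0969). Xbp1 and Cd74 of this list are also expressed by hepatocytes and macrophages. The list sum, 20976 to 23729 at day 150, against 12976 to 14618 at day 21, came mostly from Xbp1.

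Among T and natural killer cell genes 0 of 6 tested rose and 0 fell (median 0.12, -0.67 with the Gapdh ratio in the fit and 0.19 without replicate 4, where 0 rose and 0 fell), and all Cd3 chains lay below the filter. Of 6 neutrophil genes 1 rose and 0 fell (median 0.21, 0.87 with the Gapdh ratio in the fit and -0.36 without replicate 4, where 1 rose and 0 fell). The gene was Prtn3, a protease, with 926, 619 and 886 at day 150, against 88.1, 62.1 and 72.0 at day 21 (log2 change 3.44, SE 0.73, adjusted p = 0.00207). Endothelial genes gave 2 higher and 8 lower of 33 tested (median -0.15, -0.53 with the Gapdh ratio in the fit and -0.17 without replicate 4, where 1 rose and 6 fell), with a summed signal of 33488 to 41372 at day 150, against 34061 to 39301 at day 21. Nrp1, a co-receptor of vascular growth factor, had 6182, 6288 and 4686 at day 150, against 2314, 2047 and 3216 at day 21 (log2 change 1.19, SE 0.17, adjusted p = 7.07e-05). Lyve1, a hyaluronan receptor of sinusoids, had 429, 567 and 183 at day 150, against 1171, 706 and 1130 at day 21 (log2 change -1.46, SE 0.32, adjusted p = 0.00288). Plvap, of vascular openings, fell by 0.84 (SE 0.17) and Igfbp7 fell by 0.97 (SE 0.16). For endothelial genes the counts of rising and falling genes were 1 and 8 without day 150 replicate 5, 1 and 5 without day 21 replicate 1 and 1 and 7 without day 21 replicate 2 or day 21 replicate 3.

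Erythroid genes gave 2 higher and 1 lower of 8 tested, of 26 listed (median 0.28, 0.61 with the Gapdh ratio in the fit and 0.27 without replicate 4, where 2 rose and 1 fell), and the counts of rising and falling genes were 1 and 1 without day 150 replicate 5 or day 150 replicate 6 or day 21 replicate 3. Car1, a carbonic anhydrase, rose by 1.57 (SE 0.25). Car2, of the same family, had 150.3, 226 and 201 at day 150, against 1530, 1204 and 1660 at day 21 (log2 change -2.94, SE 0.23, adjusted p = 5.42e-08). The transferrin receptor Tfrc, high in young red cells, was at -0.40 (SE 0.26, adjusted p = 0.267). Of 5 bile duct genes 1 rose, Onecut2, and 1 fell, Prom1, which fell by 2.56 (SE 0.54). The median of these genes was -0.10, -1.40 with the Gapdh ratio in the fit and -0.33 without replicate 4, where 1 rose and 1 fell. Of 2 pancreatic acinar genes tested 1 rose, Cela1, an elastase, with 5336, 5459 and 6654 at day 150, against 1400, 2310 and 1748 at day 21 (log2 change 1.70, SE 0.17, adjusted p = 1.16e-06), and 13 others were below the filter or not on the array. The acinar count without replicate 4 was 1. Of 3 adipocyte genes 1 rose and 2 fell, among them Pparg, which fell by 1.0 (SE 0.25), and Adipoq and Plin1 were below the filter. Without replicate 4, 0 rose and 2 fell of the adipocyte genes, and the counts of rising and falling genes were 1 and 1 without day 150 replicate 6 and 0 and 2 without day 21 replicate 1. Of 2 skeletal muscle genes tested 0 rose and 0 fell, and without replicate 4 0 rose and 0 fell. The part of any of these cells in the results above was not tested.

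Of 20 tested immediate early genes, which answer growth signals and stress within minutes, 0 rose and 9 fell, with a median of -0.76, -0.13 with the Gapdh ratio in the fit and -0.83 without replicate 4, where 0 rose and 6 fell. Their mean log2 signal was 8.44, 8.69 and 8.46 at day 150, against 10.22, 9.25 and 8.97 at day 21, with day 21 replicate 1 highest. Of immediate early genes the counts of rising and falling genes were 0 and 5 without day 150 replicate 5 and 0 and 4 without day 21 replicate 1. Myc had 175, 843 and 240.0 at day 150, against 2359, 2245 and 1012 at day 21 (log2 change -2.41, SE 0.46, adjusted p = 9.81e-04). Gadd45g, a growth arrest gene, had 442, 948 and 755 at day 150, against 6836, 4185 and 1311 at day 21 (log2 change -2.30, SE 0.49, adjusted p = 0.00226). Klf4 fell by 1.59 (SE 0.38). Glucocorticoid and fasting response genes gave 2 higher and 7 lower of 23 tested (median -0.20, -0.23 with the Gapdh ratio in the fit and -0.20 without replicate 4, where 1 rose and 6 fell), and the counts of rising and falling genes were 2 and 4 without day 150 replicate 5 or day 21 replicate 1, 1 and 7 without day 150 replicate 6 and 1 and 9 without day 21 replicate 3. Sgk1, a kinase induced by glucocorticoids, had 1920, 1885 and 1951 at day 150, against 21646, 9989 and 5984 at day 21 (log2 change -2.51, SE 0.40, adjusted p = 1.86e-04). Hsd11b1, which renews active glucocorticoid, rose by 0.46 (SE 0.12). Fkbp5 at -0.49 (SE 0.25, adjusted p = 0.163) and Tsc22d3 at 0.34 (SE 0.29, adjusted p = 0.414), both sensitive targets of the hormone, did not pass.

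The levels of clock genes follow the hour of the day. Of 12 genes that peak near dusk 1 rose and 0 fell, and without replicate 4 0 rose and 0 fell. For the dusk list the counts of rising and falling genes were 0 and 0 without day 21 replicate 1. For those genes, after HP pregnancy 4 rose and 0 fell (median 0.84), and in control offspring 1 rose and 1 fell (median -0.17). Of 5 genes that follow Bmal1 0 rose and 0 fell (median -0.39, -0.54 with the Gapdh ratio in the fit and -0.37 without replicate 4, where 0 rose and 0 fell), and the counts of rising and falling genes were 1 and 0 without day 150 replicate 5 or day 21 replicate 2 and 0 and 1 without day 150 replicate 6. For these genes, after HP pregnancy 1 rose and 0 fell (median 0.15), and in control offspring 3 rose and 0 fell (median 0.72), and no difference of either list between the groups was tested. Noct, a rhythmic phosphatase, had 5249, 3033 and 3654 at day 150, against 1097, 1435 and 1165 at day 21 (log2 change 1.66, SE 0.50, adjusted p = 0.0197, but 0.0765 without day 150 replicate 4 and 0.0616 without day 21 replicate 1). The clock output factor Dbp was at 0.37 (SE 0.76, adjusted p = 0.758), Per2 at 0.70 (SE 0.40, adjusted p = 0.211) and Arntl (Bmal1) at -0.70 (SE 0.41, adjusted p = 0.22). The median of the dusk list was -0.17, 0.33 with the Gapdh ratio in the fit and -0.19 without replicate 4. Among 12 dusk promoters 4 held the E-box CACGTG (8.09% of all genes) and 1 the D-box TTATGTAA (1.11%), and of 5 promoters of the Bmal1 list 1 held the E-box. In the DNA methylation list 3 of 15 tested rose and 1 fell (median 0.003, -0.012 with the Gapdh ratio in the fit and -0.006 without replicate 4, where 3 rose and 2 fell), and the counts of rising and falling genes were 1 and 0 without day 150 replicate 5, 3 and 0 without day 150 replicate 6 or day 21 replicate 3, 1 and 1 without day 21 replicate 1 and 2 and 0 without day 21 replicate 2. Zbtb33, which binds methylated DNA, rose by 0.62 (SE 0.14). Dnmt3a, which sets new methyl marks, had 459, 439 and 283 at day 150, against 682, 521 and 564 at day 21 (log2 change -0.60, SE 0.22, adjusted p = 0.0493, but 0.0536 without day 150 replicate 5, 0.23 without day 150 replicate 6, 0.168 without day 21 replicate 1, 0.0555 without day 21 replicate 2 and 0.0766 without day 21 replicate 3, log2 change -0.38 without day 150 replicate 6). Dnmt1, which copies them, was at -0.48 (SE 0.19, adjusted p = 0.0684).

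Several of the largest changes lay outside these lists. Nox4, which makes hydrogen peroxide, had 1471, 2961 and 1598 at day 150, against 49.1, 43.8 and 71.1 at day 21 (log2 change 5.16, SE 0.26, adjusted p = 3.84e-10). Nat8, an acetyltransferase, had 2303, 2477 and 2248 at day 150, against 53.0, 54.7 and 99.8 at day 21 (log2 change 5.15, SE 0.36, adjusted p = 1.33e-08). Scara5, a ferritin receptor, rose by 3.89 (SE 0.53), the sodium-calcium exchanger Slc8a1 by 3.97 (SE 0.67), Plekhb1 by 3.70 (SE 0.19), Ildr2 by 3.86 (SE 0.66), Olfm3 by 3.55 (SE 0.32), Spsb4 by 3.51 (SE 0.23) and the lectin Clec2h by 3.49 (SE 0.40) on the log2 scale. All of these had day 21 signals below 150.

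Among the falling genes outside the lists, Akr1c18, which inactivates progesterone, had 23.5, 36.8 and 14.8 at day 150, against 1434, 2142 and 3508 at day 21 (log2 change -6.56, SE 0.68, adjusted p = 1.88e-06). Tff3, a secreted mucosal peptide, had 156, 144 and 195 at day 150, against 6571, 11622 and 9159 at day 21 (log2 change -5.76, SE 0.41, adjusted p = 1.33e-08). Lepr, the leptin receptor, had 108, 462 and 188 at day 150, against 6269, 6208 and 4902 at day 21 (log2 change -4.77, SE 0.50, adjusted p = 2.24e-06). Slc25a4, the adenine nucleotide carrier of muscle-type mitochondria, had 276, 424 and 222 at day 150, against 6623, 4213 and 4890 at day 21 (log2 change -4.12, SE 0.25, adjusted p = 2.5e-09). All of these had bright day 21 signals, and those of Akr1c18 were under the filter level at day 150. The X-linked brain-expressed genes Bex1 and Bex4 fell together, Bex1 with 9.80, 58.0 and 59.1 at day 150, against 4477, 2525 and 1802 at day 21 (log2 change -6.40, SE 0.50, adjusted p = 4.51e-08) and Bex4 fell by 4.95 (SE 0.52). Bhlhb9 fell by 3.87 (SE 0.32), Pls1, an actin-bundling protein, fell by 4.27 (SE 0.59), and the organic anion transporter Slc22a29 fell by 4.24 (SE 0.53).

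Whether the change with age itself differed between diet groups was tested gene by gene, as the change after HP lactation minus that in the other group. Against HP pregnancy 2 of 11018 genes passed (0.0182%), with 888 at an unadjusted p under 0.05. Against control offspring 2 passed (0.0182%), with 562. Mup3 passed in both comparisons. Its day 21 signals after HP lactation were 1309, 3744 and 3913, against 23654, 21185 and 25360 after HP pregnancy and 24295, 17111 and 25716 in control offspring. At day 150 its signals were 23580, 15440 and 14423 after HP lactation, 17234, 17849 and 16326 after HP pregnancy and 14258, 17098 and 19034 in control offspring. So the day 21 signals after HP lactation lay below those of both other groups, and the day 150 ranges overlapped. The difference of the log2 changes was 3.15 (SE 0.42, adjusted p = 0.00493) against HP pregnancy and 3.10 (SE 0.42, adjusted p = 0.00605) against control. Both calls held in all 18 fits that left out 1 pool, with adjusted p from 1.22e-04 to 0.0264 and from 1.58e-04 to 0.0352. Against control the adjusted p was 0.0995 in a fit of the compared arrays only, 0.116 with the Gapdh ratio in the fit and 0.0539 with the beta-actin ratio. Against HP pregnancy it was 0.0575 in limma without trend.

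Cyp2d13, a P450 gene with close relatives, passed against HP pregnancy. It had 6454, 5847 and 6378 at day 150, against 3627, 3372 and 3728 at day 21 after HP lactation, and 5306, 5170 and 4842 at day 150, against 4866, 5498 and 5252 at day 21, after HP pregnancy. The difference was 0.83 (SE 0.14, adjusted p = 0.0494), and it passed only without control day 21 replicate 1, control day 21 replicate 3, control day 150 replicate 1, HP pregnancy day 21 replicate 1, HP lactation day 21 replicate 2 or HP lactation day 21 replicate 3 among the 18 fits that left out 1 pool (adjusted p 0.0329 to 0.187). It did not pass with no filter, equal 75th percentiles, limma without trend, the compared arrays only or either ratio (adjusted p 0.0515 to 0.116). Mycn, a MYC family gene, passed against control at 4.20 (SE 0.66, adjusted p = 0.0274). After HP lactation it had 67.4, 74.3 and 114 at day 150, against 59.4, 151 and 93.4 at day 21, and in control offspring 4.30, 5.80 and 13 at day 150, against 138, 257 and 83.5 at day 21. These control signals of day 150 lay far under the filter level, so the size of the difference is imprecise, and with 50 added to every signal it was 1.65 (adjusted p = 0.313). It did not pass with array weights, the compared arrays only or either ratio (adjusted p 0.103 to 0.356). Among the 18 fits that left out 1 pool it passed only without control day 21 replicate 3, control day 150 replicate 3, HP pregnancy day 150 replicate 1 or HP lactation day 21 replicate 2 (adjusted p 0.00762 to 0.151).

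Other genes had low unadjusted p-values and did not pass the adjusted test. Against control these were led by Bex1, with a difference of -3.39 (SE 0.70, adjusted p = 0.286). Its day 21 signals were 4477, 2525 and 1802 after HP lactation, against 371, 428 and 481 in control offspring, while at day 150 the values were 9.80, 58.0 and 59.1 after HP lactation and 56.2, 49.3 and 51.9 in control offspring. Rassf4 at -1.68 (SE 0.35, adjusted p = 0.286), Slco1a1 at 0.97 (SE 0.20, adjusted p = 0.286) and Gna14, a G protein subunit, at 1.45 (SE 0.31, adjusted p = 0.286) followed. For Slco1a1 and Gna14 the day 21 pools after HP lactation lay below those of both other groups. Against HP pregnancy the next genes were Ifrd1 at -1.62 (SE 0.28, adjusted p = 0.0582), Abcc4 at -2.03 (SE 0.36, adjusted p = 0.0582), Cyp4a12a at 2.33 (SE 0.44, adjusted p = 0.0821), Slco1a1 at 1.07 (SE 0.20, adjusted p = 0.0821) and Hsd3b5 at 3.12 (SE 0.60, adjusted p = 0.0821). Cyp4a12a had 10792, 10967 and 9436 at day 150, against 839.9, 1556 and 1664 at day 21, after HP pregnancy, a change of 3.00, beside 5.33 after HP lactation. Several male-biased genes are among these, and their list had a median change of 2.57 after HP lactation, 1.88 after HP pregnancy and 1.86 in control offspring, a difference between lists that was not tested.

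**Figure D5:**
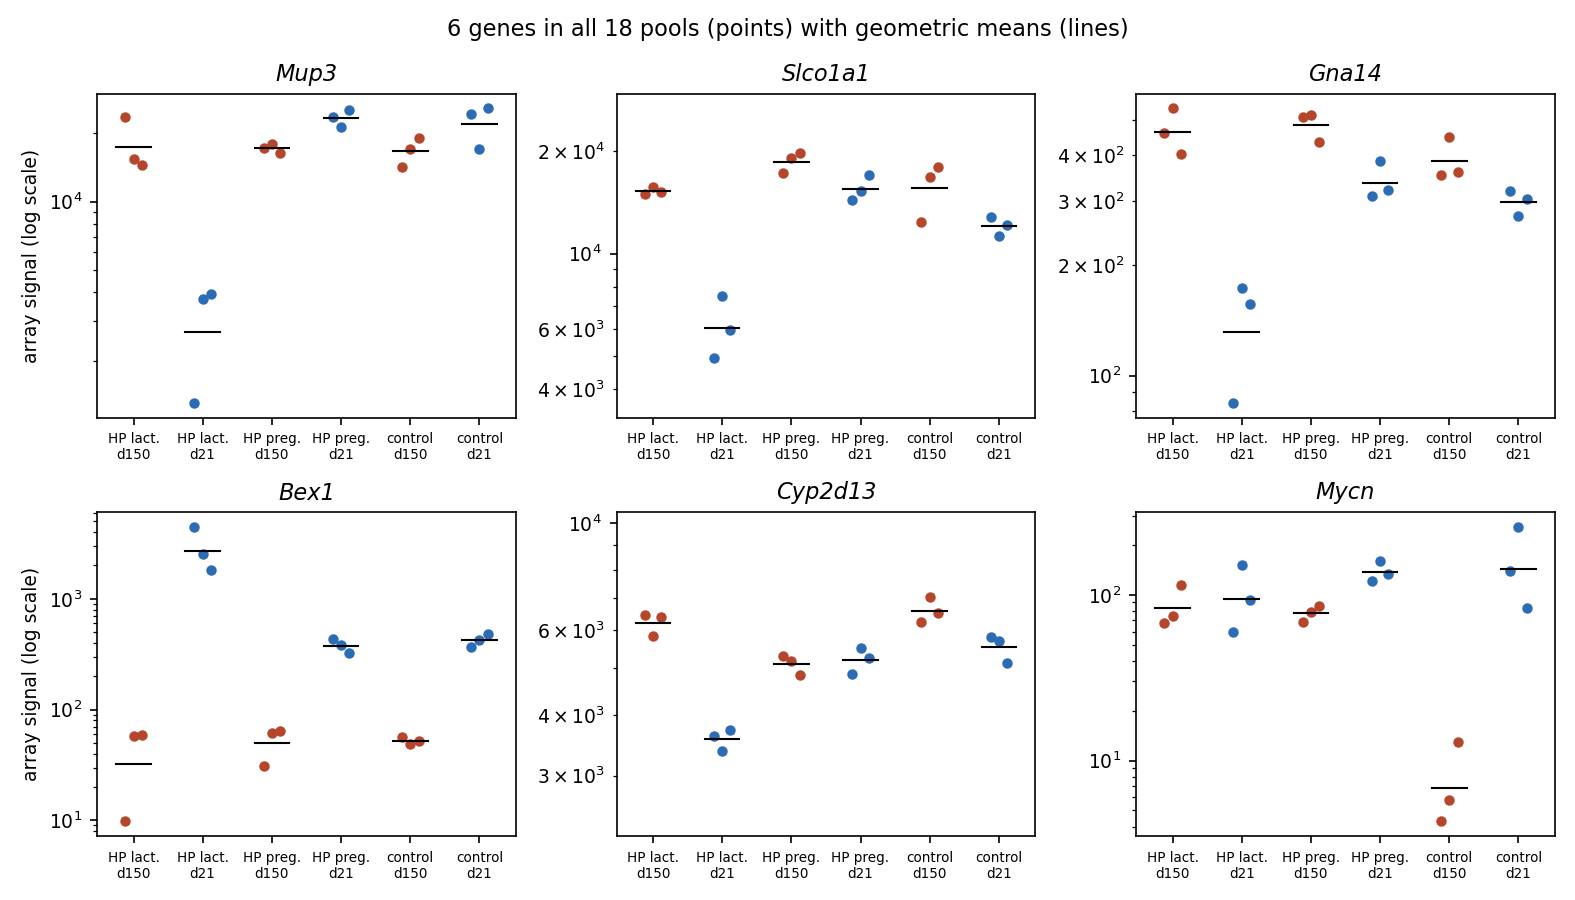
Signal of 6 genes in all 18 pools on a log scale, with geometric means as lines, day 150 left of day 21 within HP lactation, HP pregnancy and control. For Mup3, Slco1a1, Gna14 and Cyp2d13 the day 21 pools after HP lactation are the lowest, for Bex1 they are the highest, and Mycn is lowest in the control pools of day 150.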

How the data were processed

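The deposited values are probe set signals (linear intensity) of the authors, made with the MAS5 algorithm of GCOS 1.4, per the submitters' processing notes. In the deposited table every array had the same trimmed mean of 500.0, so arrays were already scaled. No detection calls were used. Of 45101 probe sets, 64 were controls, 34945 had 1 gene symbol in the platform annotation, 932 several and 9160 none. Signals were taken to log2 with nothing added, and sets with a mean log2 signal under 5.85 (signal 57.5, the median of the non-control sets) were left out. Each gene was represented by its set of highest mean signal, which left 11018 genes.

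The 6 groups of 3 arrays were fitted together in limma 3.58.1 (R 4.3.3; eBayes with trend, 12 residual and 6.47 prior degrees of freedom), two-sided, with Benjamini-Hochberg adjustment over all genes. The median SE was 0.189 for a change with age and 0.267 for a difference of changes, and the number of arrays limits the precision. The fit was checked on simulated data with known changes in 200 of 11018 genes. It recovered 22% of log2 changes of 0.5, 67% of those of 1, 86.4% of those of 1.5 and 92.4% of those of 2. Of the simulated calls 3.81% were false. The simulated noise was drawn independently for each gene and array. In the data 25.7% of genes passed, a far larger share than was changed in the simulation, so these rates may differ there. A gene that did not pass may still have changed.

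The gene lists were chosen with earlier results of these data known and were described without a set test. Named genes were the 20 largest rises and 20 largest falls with days that did not overlap, members of the lists, and the genes with the smallest p in each difference. Promoter letters came from RefSeq (GRCm38.p6). The fits with a 3'/5' ratio and without single pools of the list counts were added after seeing the data. Figures were drawn with matplotlib 3.10.9 in Python 3.11.15.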

Additional observations from a re-analysis of the deposited data

Results flagged for a closer look

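The change with age differed between diet groups in 4 tests of the difference itself, each a limma interaction contrast adjusted over 11018 genes, and each call was lost in at least 1 of the other fits. For Mup3 the log2 change after HP lactation exceeded that after HP pregnancy by 3.15 and that in control offspring by 3.10, and both calls held in all 18 fits that left out 1 pool. The call against HP pregnancy was lost in limma without trend (adjusted p = 0.0575), and that against control with the compared arrays only (adjusted p = 0.0995) and with either 3'/5' ratio in the fit (adjusted p = 0.116 and 0.0539). For Cyp2d13 the change exceeded that after HP pregnancy by 0.83, a call lost in 12 of the 18 fits that left out 1 pool. For Mycn the fitted change exceeded that in control offspring by 4.20, but the control day 150 signals lay far under the filter level of 57.5, so this size is imprecise. With 50 added to every signal the Mycn difference was 1.65 (adjusted p = 0.313), and the call was lost in 14 of the 18 fits that left out 1 pool.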

How the results depend on the processing

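No paired analysis was possible because the replicate numbers after HP lactation (4 to 6 at day 150, 1 to 3 at day 21) are not shared between the days. The 3'/5' ratios of Gapdh and beta-actin part the days and cannot be told apart from them, and the number of pools limits what can be called. Of 2830 passing genes (1557 higher, 1273 lower) in the reported fit, 790 (397 and 393) exceeded 2-fold. With every kept probe set, 4483 of 19349 sets passed, a count of sets and not of genes. There more sets were lower (2318) than higher (2165), unlike in the reported fit. A fit of the compared arrays alone gave 1730 passing genes (943 and 787). With the Gapdh ratio as a covariate 29 passed (25 and 4), with the beta-actin ratio 63 (47 and 16). Leaving out 1 pool gave 2126 to 2541 passing genes (1177 to 1433 higher, 946 to 1108 lower), and the other filters, scalings and weights 2504 to 3109. Of differences against HP pregnancy, 2 in the reported fit, 1 passed with no filter, equal 75th percentiles or either ratio, 5 after quantile normalization, 7 with 50 added, 8 with all probe sets or array weights, and 0 in limma without trend (845 at an unadjusted p under 0.05). Leaving out 1 pool gave 1 to 11. Of differences against control, 2 in the reported fit, 1 passed with the filter at the 70th percentile or array weights, and 0 by limma with the compared arrays only (449 at an unadjusted p under 0.05), the Gapdh ratio (317) or the beta-actin ratio (472). Leaving out 1 pool gave 1 to 3. The change of sign of single genes was as follows, with the log2 change under the alternative, and the cause was not tested. With the Gapdh ratio in the fit the value was Alb -0.23, C1qa -0.21, Cps1 -0.061, Cspg5 -0.52, Cyp2c39 0.16, Cyp2e1 -0.35, Cyp3a11 -0.19, Gstp1 -0.033, Hmgcs1 0.35, Mycn 0.046, Slc22a27 1.99, Tfrc 0.61, Trib3 0.005 and Vsig4 -0.12. With the beta-actin ratio it was Alb -0.009, Cps1 -0.17, Cyp2e1 -0.091, Cyp3a11 -0.062, Gamt 0.14, Gss 0.029, Mgll 0.29, Mycn 0.50, Noct -0.17, Pccb 0.021, Pparg 0.12 and Tsc22d3 -0.67. After quantile normalization it was Cps1 -0.006. Over the fits that left out 1 compared pool the values ran for Cpt1a from -0.35 to 0.077 (turned without day 150 replicate 6), Mycn from -0.52 to 0.16 (turned without day 21 replicate 2), Nr1h4 from -0.014 to 0.22 (turned without day 21 replicate 1), Pck1 from -0.37 to 0.041 (turned without day 21 replicate 2), Ppara from -0.33 to 0.16 (turned without day 150 replicate 6) and Sult3a1 from -1.24 to 0.53 (turned without day 150 replicate 5). None of these last genes passed in the reported fit.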
